A study of Homo sapiens with 6 samples.

Results

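Mediator is the large complex that connects transcription factors bound at enhancers with RNA polymerase II at promoters, and its mRNAs were examined here together with those of the kinase module, which holds CDK8 or its paralog CDK19 and cyclin C. The 33 genes were taken by symbol from the gene-level table of the study, which names 22933 gene symbols in all. They comprise 11 genes of the head module, 9 of the middle module, 5 of the tail, the scaffold gene MED14 and 7 genes of the kinase module. Where a symbol stood in several rows of the table, the row with the most RefSeq names and then the highest summed FPKM was used. All 33 genes passed the filter applied to every gene, a mean of the group values of at least 1 FPKM with a value above 0 in both groups, as did 12511 gene symbols in the whole table.

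RNA-Seq was performed on PC-3 cells, an established human prostate cancer cell line derived from a bone metastasis, in 6 samples, 3 in each of the groups tdTom and TTP-tdTom. All cells carried the Tet-On-Advanced transactivator rtTA2 under G418 selection, were sorted for tdTomato and received 300 ng/ml doxycycline (Dox) for 4 hours. The groups differed by the second retrovirus, pRetroX-Tight-pPGK-tdTomato in tdTom and pRetroX-Tight-TTP-pPGK-tdTomato in TTP-tdTom, so that only the latter held the Dox-inducible TTP (tristetraprolin) cDNA. Both were pools of infected cells of a single parental line, and the labels do not say whether the samples of a group were separate cultures.

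The core of Mediator is built from a head, which contacts RNA polymerase II, a middle, and a tail, which receives many activators, all held together by MED14. The kinase module docks reversibly on this core through MED13 or MED13L, and while bound it keeps the polymerase away; cyclin C and MED12 or MED12L are needed for the activity of its kinase. TTP, encoded by ZFP36, binds AU-rich elements in the 3′UTR of mRNAs and recruits the machinery that removes their poly(A) tails. The question behind the comparison was which mRNAs differ soon after TTP is induced.

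The deposited table gives 1 FPKM value per group and gene (fragments per kilobase of transcript, scaled to the number of mapped fragments), so no value of a single sample, no spread between replicates and no count of fragments stands behind any number below. No test was therefore possible, and a gene is called lower or higher here where its group values differed by at least 1.5-fold. Over the 12511 gene symbols, the median log2 fold change (TTP-tdTom over tdTom) was -0.24, 22.7% were lower by at least 1.5-fold and 2.37% were higher. ZFP36 itself read 5.56 FPKM in tdTom and 5.54 in TTP-tdTom, so this row gives no check of the group labels, on which every direction below rests. The group names written in the table give the same assignment as the sample labels. Whether fragments of the TTP cDNA were counted at that row was not tested. Of the 5 epithelial markers, KRT8, KRT18, KRT19 and EPCAM were between 15.1 and 98.2 FPKM in tdTom, while CDH1 was at 0.119 FPKM in tdTom and 0.390 in TTP-tdTom. Summed markers of fibroblasts were 7.0 and 6.17 FPKM, of leukocytes 1.26 and 1.33, and of endothelial cells 0.986 and 1.06. COL1A2 was listed at 0 in tdTom and COL3A1 at 0 in TTP-tdTom.

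Across the 33 genes, 10 were lower in TTP-tdTom by at least 1.5-fold, 30.3% against 22.7% of all tested symbols, 4 were higher, 12.1% against 2.37%, and 19 were within 1.5-fold. The 4 include MED12L, whose row passed the filter only through TTP-tdTom and lay on the other strand, 3 were higher with the row on its own strand, and none of the 23 members with a mean of at least 5 FPKM was. At a threshold of 2-fold, 3 members were lower, against 8.3% of all symbols, and 1 was higher, against 1.22%. At a ratio of 5 to 4, 15 members were lower, against 40.5% of all symbols, and 4 were higher, against 5.18%. The split of lower and higher members, 10 and 4, became 5 and 4 where the median of all symbols was set to 0, against 13.3% lower and 4.61% higher of all symbols. It became 15 and 1 after rescaling both groups to the same FPKM sum, against 44.1% lower and 1.44% higher, so that the lower share of the members was then near that of all symbols. The 10 lower genes were CDK19, CCNC, MED13, MED14, MED10, MED30, MED17, CDK8, MED23 and MED13L, in order of the size of the difference. The 4 higher genes were MED12L, MED18, MED26 and MED9. The median log2 fold change of the 33 genes was -0.22, beside -0.24 over all tested symbols at the minimum of 1 FPKM. With a mean of at least 5 FPKM, which 23 members reached, the medians were -0.35 and -0.27. The members differed widely among themselves. In the kinase module 5 of 7 genes were lower, against 5 of 26 in the core. With the median of all symbols set to 0 the counts were 3 and 2, and against the medians of bins of equal GC content, described further on, they were 2 and 1. The median log2 fold change was -0.79 in the kinase module, -0.35 in the tail, -0.13 in the head and -0.10 in the middle. Relative to the median of all symbols, the head and the middle lay above 0 (0.10 and 0.14), and the tail (-0.11) and the kinase module (-0.55) below it. With MED27 to MED30 counted in the tail, however, its median was -0.15, above the -0.24 of all symbols. With a mean of at least 5 FPKM, the middle was at -0.30, below the -0.27 of all symbols.

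**Figure D1:**
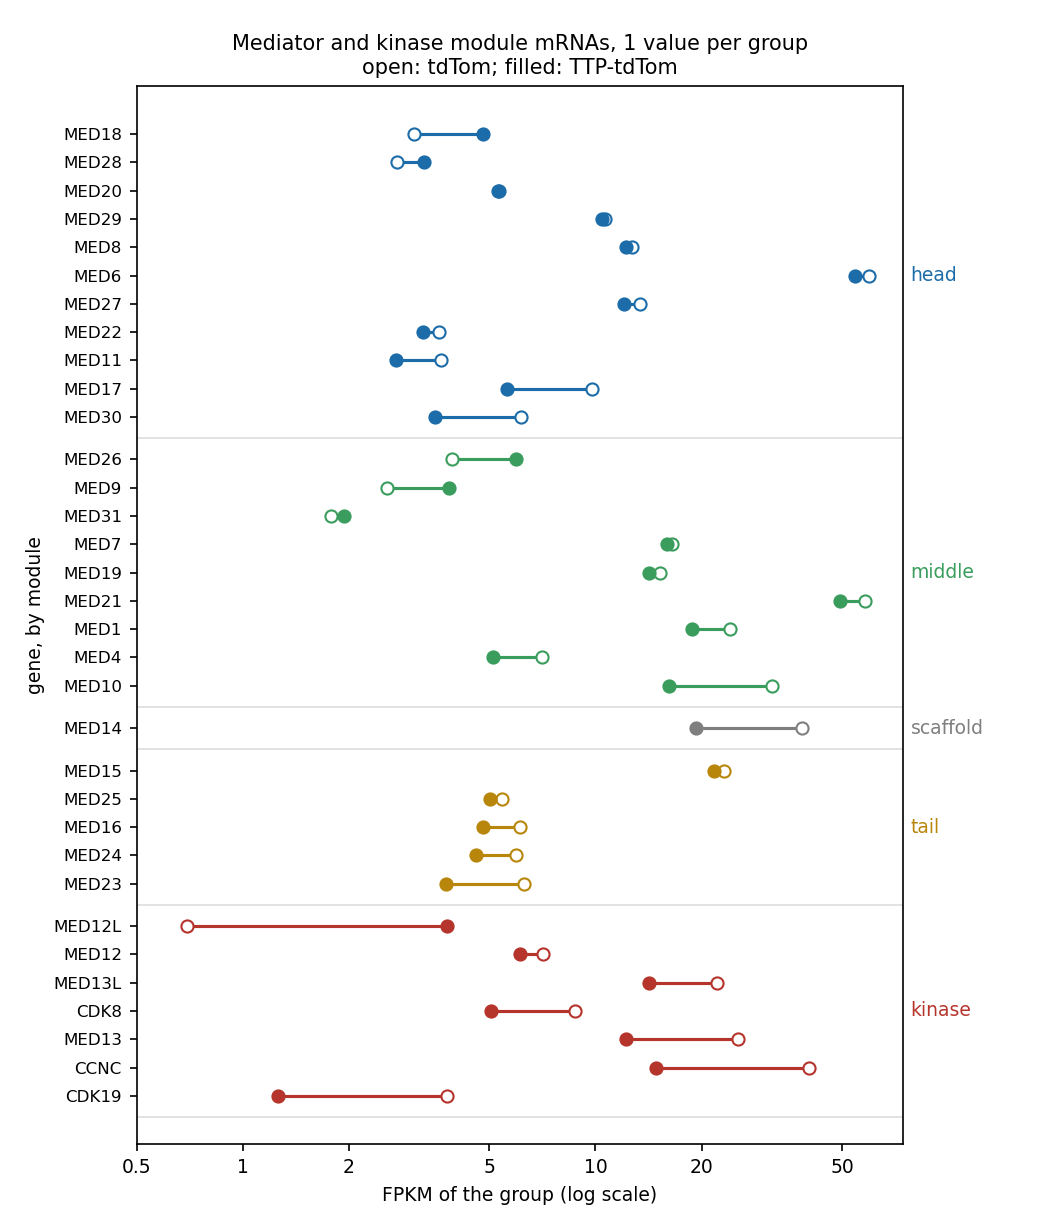
Levels of the 33 mRNAs in FPKM on a log axis, with an open circle for tdTom and a filled circle for TTP-tdTom, 1 value per group and gene; genes are grouped by module. The lines of CDK19, CCNC and MED13 are the longest of those that run to the left, and CDK19 goes from 3.80 to 1.26 FPKM.

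The 3 lowest log2 fold changes of the 33 genes were all in the kinase module. CDK19, which replaces CDK8 in a part of the kinase modules, was at 3.80 FPKM in tdTom and 1.26 in TTP-tdTom, a log2 fold change of -1.59 with 33.2% of the tdTom level left. Only 1.22% of all tested symbols had a value as low or lower. Its level was low, however, and it was not scored with a mean of at least 5 FPKM. With a pseudocount of 1, CDK19 was at -1.09 and no longer the lowest, since CCNC was at -1.38. CCNC, which encodes cyclin C, the partner that activates both kinases, was at 40.3 FPKM in tdTom and 14.9 in TTP-tdTom, a log2 fold change of -1.44 with 36.9% left. By level among the 33 genes, CCNC stood at rank 3 in tdTom and at rank 8 in TTP-tdTom. MED13, the subunit that joins the kinase module to the core, was at 25.3 and 12.2 FPKM, a log2 fold change of -1.05. Its paralog MED13L was at 22.1 and 14.2 FPKM, a log2 fold change of -0.63. CDK8, the founding kinase of the module, was at 8.76 and 5.07 FPKM, a log2 fold change of -0.79. MED12, which activates the kinase and is mutated in some prostate cancers, stood apart from these genes at 7.12 and 6.11 FPKM, a log2 fold change of -0.22 that was close to the median of all symbols. Its transcript had a GC content of 54.5%, beside 38.7% to 45.3% in the lower genes of the module. Against the median of its bin of GC content, described further on, MED12 lay at -0.075.

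The rows of these genes do not overlap each other, though those of CCNC and CDK19 lie on the same chromosome. On the GRCh37 assembly with decoy sequence used by the authors, the row of CCNC spans chromosome 6 from 99990263 to 100016690 and that of CDK19 chromosome 6 from 110931150 to 111136621. CDK8 lies on chromosome 13 from 26828237 to 26978620, MED13 on chromosome 17 from 60018681 to 60142667, MED13L on chromosome 12 from 116396381 to 116714991 and MED12 on chromosome X from 70338406 to 70362451. No other symbol overlapped the rows of CCNC, CDK19, CDK8, MED12 or MED13, and the row of MED13L contained only the microRNA gene MIR620.

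Since TTP binds AU-rich elements, the 3′UTR of the transcript that carries each gene's RefSeq name was searched in GENCODE release 29 (built on GRCh38) for the heptamer TATTTAT, written as DNA, on the sense strand. Sites of 5 genes are shown, CDK19, MED13, MED13L and MED14 as lower genes that hold the heptamer and MED12 as a gene that holds it near the median of all symbols. Each window has 21 bases, 5′ to 3′, the capitals mark the heptamer, and positions count from the first base after the stop codon.
CDK19, bases 544 to 564 of 4557: acgttcgTATTTATctagttt
MED13, bases 434 to 454 of 3863: cttctctTATTTATtgtaagt
MED13, bases 1341 to 1361 of 3863: cctttttTATTTATttaattt
MED13L, bases 592 to 612 of 7394: ttttgttTATTTATtttaatt
MED13L, bases 2055 to 2075 of 7394: ggtgacaTATTTATacgtttt
MED12, bases 170 to 190 of 229: tgtatatTATTTATatagaga
MED14, bases 2754 to 2774 of 3500: taatgttTATTTATcatccaa

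The 3′UTR of CDK8, with 1157 bases, did not hold these letters. CCNC, CDK19, MED14 and MED12 held the heptamer 1 time each, and MED13 and MED13L 2 times each. Extended by T on either side to the nonamer TTATTTATT, which contains the heptamer, it was found in MED13 and MED13L only among the 33 genes, and in 9.25% of all matched 3′UTRs. Of the 5 lower genes of the kinase module, CDK19, CCNC, MED13 and MED13L held the heptamer and CDK8 did not. The other genes of the module, MED12 and MED12L, were not lower and held it too, MED12L 5 times. Over all matched symbols 34.8% held it, and 60.3% of the lower ones did.

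FPKM is scaled to transcript length, and the ratios given here compare FPKM values within the module, not numbers of molecules. The part of base composition in them was not tested. In tdTom the level of CCNC was 3.21 times the sum of CDK8 and CDK19, and in TTP-tdTom it was 2.35 times that sum. The sum of the kinases went from 12.6 to 6.33 FPKM, with 50.4% left, beside 36.9% for CCNC, 57.8% for CDK8 and 33.2% for CDK19. The FPKM of CDK8 was 2.30 times that of CDK19 in tdTom and 4.01 times in TTP-tdTom, and the difference between the log2 fold changes of CDK19 and CDK8 was -0.80. MED13 was at 1.15 times the level of MED13L in tdTom and at 0.859 times in TTP-tdTom, a difference of -0.41 between the log2 fold changes. The sum of MED13 and MED13L went from 47.4 to 26.5 FPKM, with 55.8% left. MED12 was at 0.567 times the kinase sum in tdTom and at 0.965 times in TTP-tdTom, since 85.8% of its level remained. A single value per group gives none of these ratios an error. With a pseudocount of 1 the difference between CDK19 and CDK8 was -0.40. Against the medians of bins of equal GC content, that between MED13 and MED13L was -0.18.

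MED12L could not be read from the row that the selection rule takes. That row listed 0.693 FPKM in tdTom and 3.81 in TTP-tdTom, which made MED12L the highest of the 33 log2 fold changes at 2.46. The symbol stood in 30 rows of the table with the same bounds, chromosome 3 from 150804676 to 151176497. In the order of the table each chromosome is passed through once for each strand, and 94.2% of 19932 gene symbols stood in the pass of their annotated strand. The selected row of MED12L did not, as the only one of the 33. A single MED12L row stood in the pass of the gene's own strand, with 2.19 FPKM in tdTom and 2.05 in TTP-tdTom, a log2 fold change of -0.097. Of the other 29 rows, 18 were higher in TTP-tdTom and 11 lower, 2 of them listed at 0 in TTP-tdTom, and the highest value was 4.10 FPKM. A further 6 symbols overlap the locus, among them GPR171 and the P2Y receptor genes P2RY12, P2RY13 and P2RY14. With the row on the gene's strand, a choice made after seeing the data, 3 of the 33 genes were higher. With MED12L left out, also a choice made after seeing the data, 5 of the remaining 6 genes of the kinase module were lower. Their median log2 fold change was -0.92. Over all tested symbols 22.7% were lower and the median was -0.24. With the median of all symbols set to 0, 3 genes of the module were lower, and against the medians of GC bins 2 were.

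**Figure D2:**
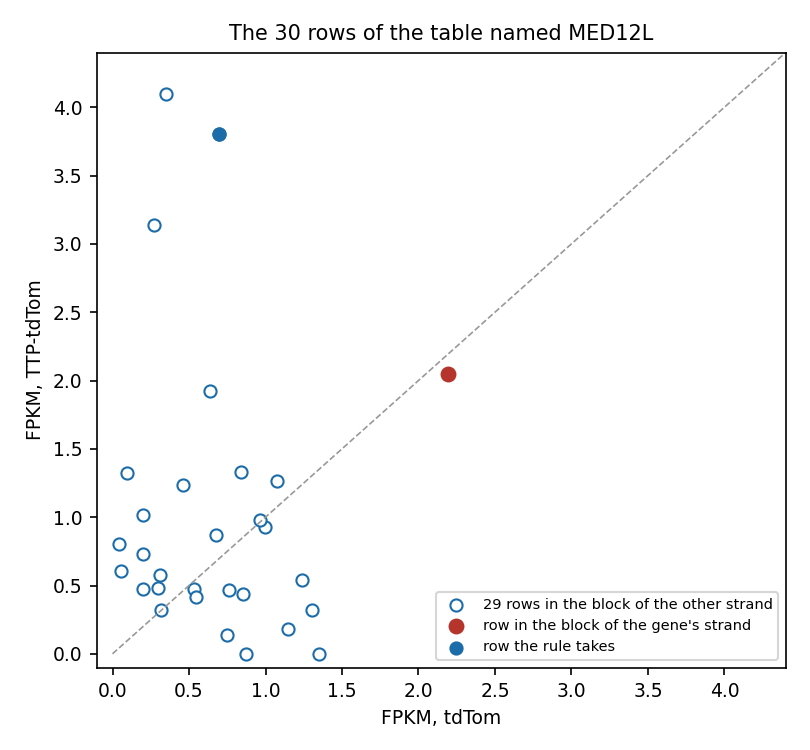
The 30 rows of the table that carry the symbol MED12L, with the FPKM of tdTom on the horizontal and of TTP-tdTom on the vertical axis, 1 point per row; the dashed line marks equal values. The filled red point, in the pass of the gene's strand, lies near the line at 2.19 and 2.05 FPKM, whereas the filled blue point that the rule takes lies far above it.

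The scaffold gene MED14, around which the head, middle and tail are arranged, was at 38.5 FPKM in tdTom and 19.3 in TTP-tdTom. Its log2 fold change was -1.0 with 50.1% left, and only CDK19, CCNC and MED13 had lower ones. MED14 kept rank 4 by level in both groups. Its row spans chromosome X from 40508794 to 40595208 and overlapped no other symbol. A further MED14 row, in the pass of the other strand, held 0.546 and 0.164 FPKM.

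In the head, 2 of 11 genes were lower, MED17 and MED30, 1 was higher, MED18, and 8 were within 1.5-fold. The lower share, 18.2%, was near the 22.7% of all symbols, of which 2.37% were higher. MED17, the central architectural subunit of the head, was at 9.76 FPKM in tdTom and 5.62 in TTP-tdTom, a log2 fold change of -0.80. MED30, a subunit found in animals but not in yeast, was at 6.15 and 3.51 FPKM, a log2 fold change of -0.81. These genes lay well below the rest of the head. MED18, which forms a movable pair with MED20 on the head, was at 3.07 FPKM in tdTom and 4.80 in TTP-tdTom, a log2 fold change of 0.65. Its partner MED20 was at 5.32 and 5.31 FPKM, a log2 fold change of -0.0017, so the group values of MED20 were level while those of MED18 were not. The call of MED18 was lost with a pseudocount of 1 (0.51) and after rescaling both groups to the same FPKM sum (0.35). MED6, a conserved head subunit with the highest FPKM of the 33 mRNAs in both groups, was at 59.6 and 54.3 FPKM, a log2 fold change of -0.13. The pair MED11 and MED22, whose proteins bind each other, had log2 fold changes of -0.42 and -0.16. MED8, MED27 and MED29 lay between -0.15 and -0.029, and MED28 was at 2.74 and 3.27 FPKM, a log2 fold change of 0.26. The row of MED22 overlapped the rows of RPL7A and of small nucleolar RNA genes, that of MED11 overlapped CXCL16, and that of MED20 overlapped BYSL.

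In the middle, 1 of 9 genes was lower, MED10, 2 were higher, MED9 and MED26, and 6 were within 1.5-fold, beside 22.7% lower and 2.37% higher of all symbols. MED10, a subunit conserved from yeast, was at 31.7 FPKM in tdTom and 16.2 in TTP-tdTom, a log2 fold change of -0.97 with 51.2% left. MED26, the subunit through which elongation factors are recruited, was at 3.92 and 5.96 FPKM, a log2 fold change of 0.60. MED9 was at 2.56 and 3.85 FPKM, a log2 fold change of 0.59 that barely exceeded 1.5-fold. The higher genes thus had low levels in tdTom. With a pseudocount of 1, MED26 was at 0.50 and MED9 at 0.45, and both calls were lost. Rescaling both groups to the same FPKM sum also lost them, at 0.31 and 0.29. Among the 10 members with a mean of the group values under 5 FPKM, 4 were higher, and among the 23 with a mean of 5 or more, none was. MED12L, among the 4, reached the minimum of 1 FPKM only through TTP-tdTom and was not higher in the row on its own strand, with which 3 were higher. The same split over all tested symbols gave 5.62% higher at a mean of 1 to 5 FPKM and 0.583% at 5 or more. MED1, the subunit that nuclear receptors bind, was at 24.1 and 18.8 FPKM, a log2 fold change of -0.36. MED4 was at 7.05 and 5.14 FPKM, a log2 fold change of -0.46, and the largest difference among genes within 1.5-fold. MED7 and MED21, which pair to form the hinge of the middle, had log2 fold changes of -0.045 and -0.24 and levels in tdTom of 16.5 and 58.2 FPKM. MED19 and MED31 had log2 fold changes of -0.099 and 0.12. The row of MED19 extended over CTNND1, TMX2 and BTBD18, and that of MED31 over KIAA0753 and TXNDC17, and the part of the overlapping genes in these values was not tested.

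In the tail, 1 of 5 genes was lower, 20% beside 22.7% of all symbols, and none was higher. MED23, the subunit that the ERK-activated factor ELK1 binds, was at 6.26 FPKM in tdTom and 3.76 in TTP-tdTom, a log2 fold change of -0.73 with 60.1% left. MED24 and MED16 had log2 fold changes of -0.37 and -0.35, from 5.95 and 6.12 FPKM in tdTom. MED15, which SREBP factors bind, was at 23.1 and 21.7 FPKM, a log2 fold change of -0.089. MED25, a target of viral and ETS-family activators, was at 5.44 and 5.01 FPKM, a log2 fold change of -0.12. MED15 and MED25 were thus nearly level between the groups, and MED23 was the lowest of the tail. The row of MED25 overlapped 9 other symbols, among them PTOV1 and AKT1S1, and that of MED23 overlapped ARG1.

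**Figure D3:**
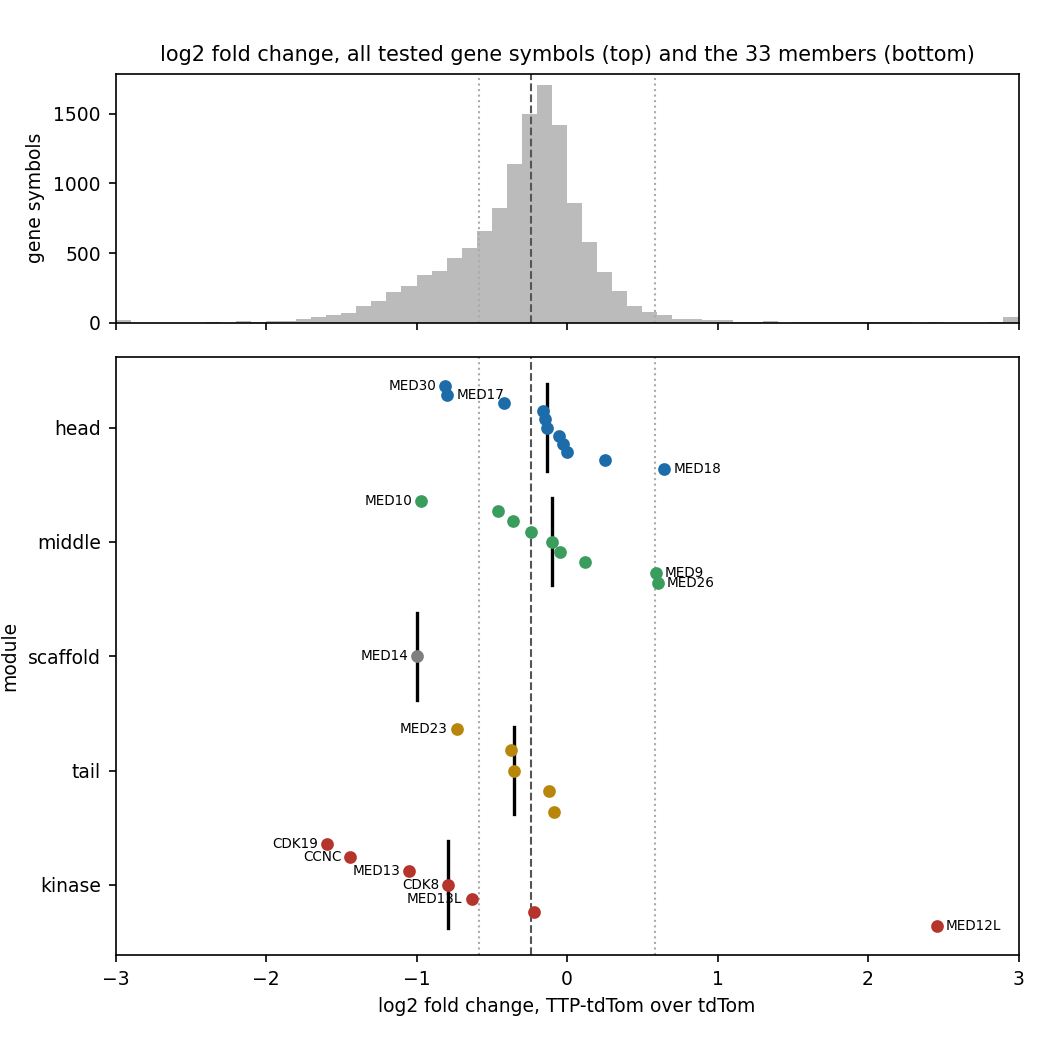
Log2 fold change of the group FPKM values, TTP-tdTom over tdTom, for 12511 gene symbols (top, bars of 0.1; values beyond 3 in either direction are in the end bars) and for the 33 members by module (bottom, 1 point per gene, black line for the module's median). The dashed line is the median of all symbols, -0.24, and the dotted lines mark 1.5-fold; 5 points of the kinase module lie left of the left dotted line.

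The fold changes ran with the base composition of the transcripts, in the members and in the table as a whole. For 11389 of the tested symbols, 91.0%, a transcript with the RefSeq name of the row was found, and it was found for all 33 members. With the matched symbols ordered by GC content and cut into 10 equal bins, the median log2 fold change went from -0.75 in the lowest bin (31.1% to 38.5% GC) to -0.097 in the highest (61.7% to 74.6%). Spearman's rho between GC content and log2 fold change was 0.49 across the 11389 symbols, 0.39 across the 33 members and 0.43 across the 32 members without MED12L, as descriptions, since genes share the same libraries and are not replicates. All 10 lower members were among the 19 with a GC content under the median of all matched symbols, 48.0%, where 38.8% of all symbols were lower. None of the 14 members at or above that content was lower, where 6.92% of all symbols were. MED18, MED9 and MED26, all higher, had GC contents of 49.5%, 55.6% and 60.7%.

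Set against the median of its own GC bin, a comparison chosen after seeing the data, CDK19 lay at -1.17, CCNC at -0.87 and MED10 at -0.72, and these 3 remained past 1.5-fold. MED14 lay at -0.57, MED13 at -0.48, MED30 at -0.47, CDK8 at -0.45, MED17 at -0.37, MED23 at -0.31 and MED13L at -0.30, all 7 below their bin's median but within 1.5-fold of it. By the same measure 7.38% of all matched symbols were lower by at least 1.5-fold and 4.79% higher. MED18 lay at 0.84, MED9 at 0.70, MED26 at 0.70 and MED28 at 0.59 above their bins' medians, so that with MED12L 5 members were higher by this measure and 3 lower. MED21 and MED4, which have the lowest GC contents of the 33 (36.8% and 36.7%), lay at 0.51 and 0.30 above the median of their bin. The part of base composition in the differences between members was not tested.

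**Figure D4:**
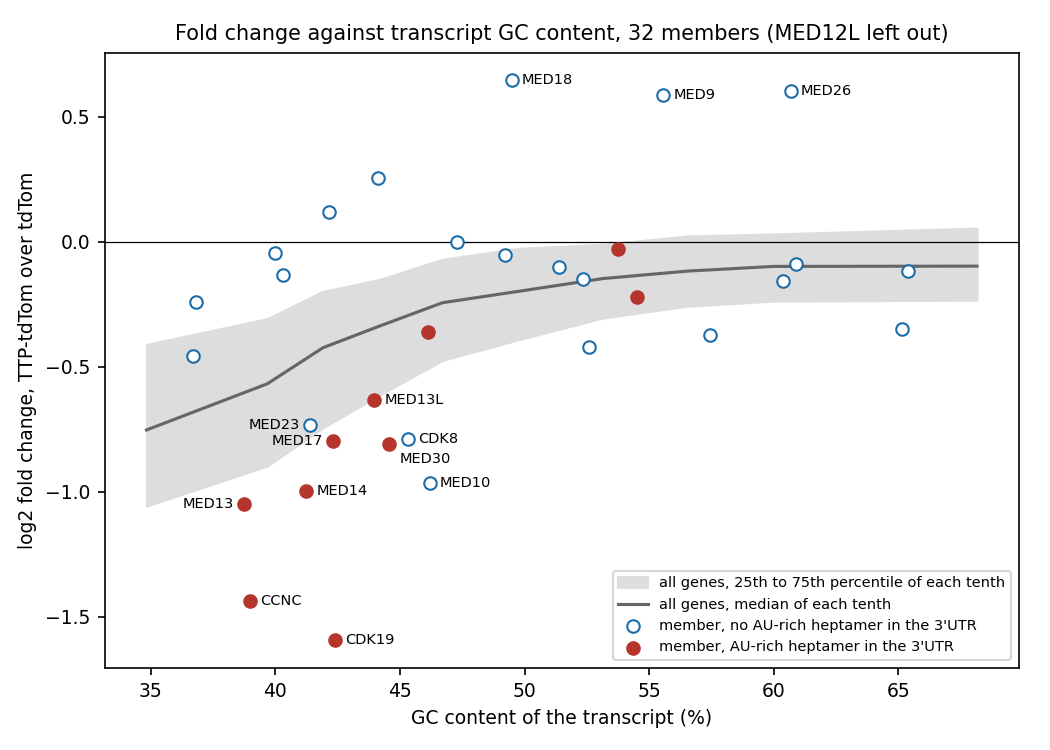
Log2 fold change of the group FPKM values, TTP-tdTom over tdTom, against the GC content of the transcript in percent for 32 members, filled red where the 3′UTR holds the AU-rich heptamer and open blue where it does not; the grey line and band are the median and the 25th to 75th percentile of all matched symbols in 10 bins of GC content. MED12L is left out because its row lay in the pass of the other strand. CDK19 and CCNC lie farthest below the median line and MED18 farthest above it, and other members also lie outside the band on either side, such as MED10 and MED28.

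The heptamer stood in the 3′UTR of 11 of the 33 members, 33.3%, and in 34.8% of all 11389 matched 3′UTRs. Among the 10 lower members it was present in 7 (CDK19, CCNC, MED13, MED14, MED30, MED17 and MED13L) and not in MED10, CDK8 or MED23. Among the 23 others it was present in 4, 17.4%, namely MED1, MED12, MED29 and MED12L. Over all matched symbols it was present in 60.3% of the lower ones and in 27.2% of the others. Longer 3′UTRs hold any short word more often. The share of all matched 3′UTRs with the heptamer was 7.50% in the shortest of 5 length bins, up to 404 bases, and 71.0% in the longest, from 3018 bases, and 5 of the 7 members in the longest bin held it. MED30 and MED12 held it in short 3′UTRs of 284 and 229 bases, and MED28 did not in 10307 bases. A match is a description of these letters, and whether TTP bound any of these mRNAs was not measured by this assay.

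Genes of the machinery on which Mediator acts were drawn up as 5 lists with 61 genes, of which 59 passed the filter; 15 were lower, 25.4% against 22.7% of all tested symbols, and 1 was higher. The median log2 fold change of the 59 genes was -0.33. Of the 12 RNA polymerase II subunits only POLR2K was lower, at 136.4 FPKM in tdTom and 40.0 in TTP-tdTom, a log2 fold change of -1.77. The other 11 lay between -0.52 and 0.098, with POLR2G the highest, and the catalytic subunit gene POLR2A was at 135 and 124 FPKM. The general transcription factors had 3 of 14 lower, GTF2A1 of TFIIA (-1.30), GTF2F2 of TFIIF (-1.0) and the TFIIH helicase gene ERCC3 (-0.68), and the highest was GTF2H4 (0.19). TFIID had 4 of 13 lower, TAF13 (-1.24), TAF2 (-1.15), TAF9 (-1.01) and TAF12 (-0.79), and the highest was TAF5 (0.19). Against their GC bins none of the general transcription factors or TFIID genes was lower by 1.5-fold, with TAF2 at -0.58, TAF13 at -0.49, TAF12 at -0.45 and TAF9 at -0.25. POLR2K was still lower by that measure, at -1.02.

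The list most like the kinase module in kind, the other kinases and cyclins of transcription, had all 11 genes below 0, 4 of them lower by at least 1.5-fold, and a median log2 fold change of -0.43. Over all tested symbols 9994 of 12511 lay below 0, 22.7% were lower and the median was -0.24, and against their GC bins the median of the 11 genes was -0.082 and only CCNH was lower by 1.5-fold, at -0.63. MNAT1, CCNH and CDK7, which together form the CDK-activating kinase of TFIIH, were lower with log2 fold changes of -1.33, -0.97 and -0.60. The call of CDK7 was near the threshold. With a pseudocount of 1, 2 of the 11 genes were lower, against 18.8% of all symbols. With the median of all symbols set to 0 there were also 2, against 13.3%. MNAT1 was at 111.9 FPKM in tdTom and 44.6 in TTP-tdTom. CCNT1, a cyclin of the elongation kinase P-TEFb, had a log2 fold change of -0.62, and HEXIM1, an inhibitor of P-TEFb, was closest to 0 at -0.22. The log2 fold change of CCNC, -1.44, was below those of the cyclin genes CCNH, CCNT1, CCNT2 and CCNK, which lay between -0.97 and -0.43. Among the elongation partners 3 of 9 were lower, AFF4 (-1.55), ELL2 (-1.17) and EAF1 (-0.94), beside 22.7% of all symbols. Against their GC bins these 3 were still lower by 1.5-fold, at -1.12, -0.60 and -0.60. EAF2, at 0.757 FPKM in tdTom and 1.70 in TTP-tdTom, was the 1 higher gene of the 5 lists, beside 2.37% of all symbols, and it reached the minimum of 1 FPKM only through TTP-tdTom. MED26, through which several of these elongation partners are recruited, was higher, whereas AFF4, a scaffold of the super elongation complex, was lower. The call of MED26 was lost with a pseudocount of 1 (0.50) and after rescaling both groups to the same FPKM sum (0.31).

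**Figure D5:**
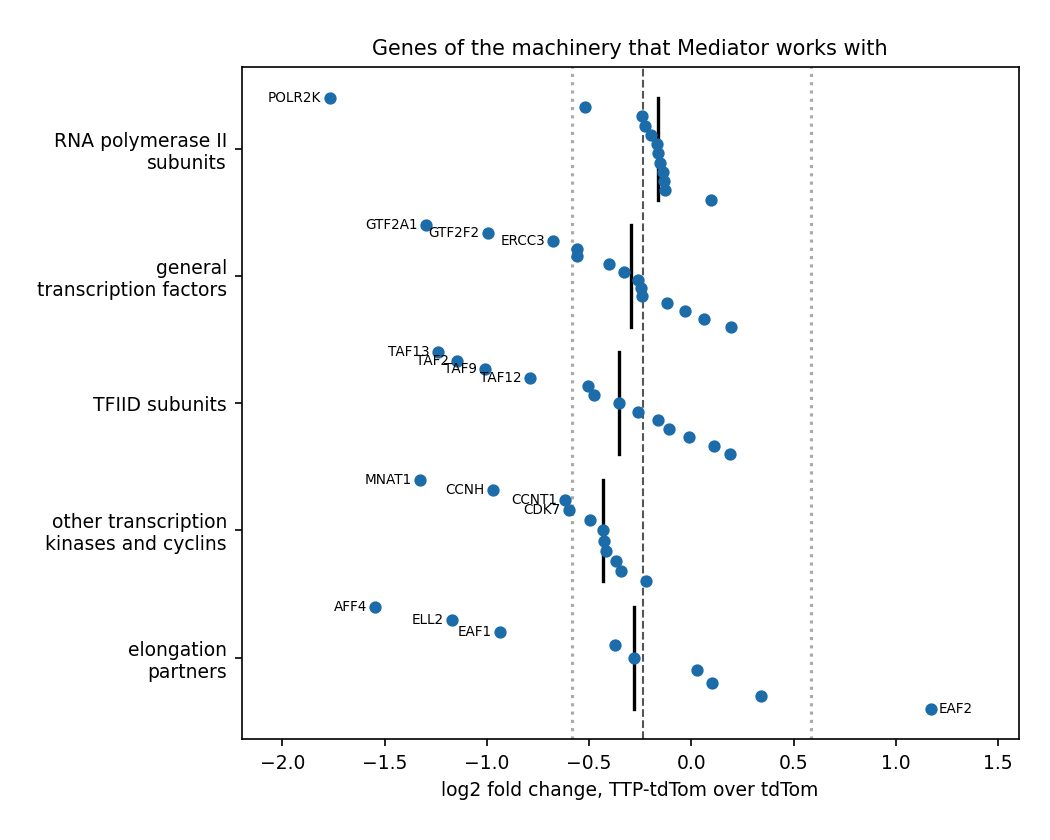
Log2 fold change of the group FPKM values, TTP-tdTom over tdTom, for 59 genes in 5 lists of the transcription machinery, 1 point per gene, with a black line at the median of each list, a dashed line at the median of all symbols (-0.24) and dotted lines at 1.5-fold. POLR2K is far below the 11 other polymerase subunits, and EAF2 is the only point right of the right dotted line.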

How the data were processed

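RNA-Seq libraries were strand-specific and sequenced in paired-end runs. The authors aligned reads with TopHat2 2.0.13 to Hs37D5 (GRCh37 with decoy sequence) and compared the groups with Cufflinks 2.2.1 at gene level. The deposited FPKM values, computed by the authors, are 1 per group and row, so depth per sample, spread and replicate fits were not available to this work, and 0 columns held values of single samples. The authors' deposited log2 fold changes, their test statistic (a score) and their p-values and q-values hold the study's own comparison and were not used.

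Here log2 fold changes were computed as the plain ratio of the group FPKM values (no pseudocount) for symbols with a mean of at least 1 FPKM and values above 0 in both groups. Called means at least 1.5-fold; no test was run. All 33 members, ZFP36, and in the 5 lists every called gene and the lowest and highest gene are named. Members and lists were chosen with earlier results of these data known. Transcripts were matched through RefSeq names to GENCODE release 29, and GC content, 3′UTRs and motifs came from its sequences. Row starts are counted from 1. MED14 was kept on its own, and MED27 to MED30 in the head. The alternatives were the fold, the minimum FPKM, pseudocounts of 0.1 and 1, scaling, the row used and the module assignment. Functions were tested on simulated data. Python 3.11.15, numpy 2.4.6, pandas 2.3.3 and matplotlib 3.10.9 were used. Some sequence windows, marker genes and overlapping genes are not reported here.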

Additional observations from a re-analysis of the deposited data

How the results depend on the processing

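No paired analysis was possible because the table holds 1 value per group, and for the same reason no replicate could be left out. Of the 33 genes, 10 were lower and 4 higher by at least 1.5-fold; at least 2-fold left 3 (CDK19, CCNC and MED13) and 1 (MED12L), with 8 of the partner genes lower, against 8.3% and 1.22% of all symbols. A ratio of at least 5 to 4 gave 30 partner genes lower and 2 higher, against 40.5% and 5.18% of all symbols. With a mean of at least 5 FPKM, 23 members were left. Of these 0 were higher, as were 0 partner genes, against 0.583% of all symbols. At that minimum 8 members, 4 of them in the kinase module, and 15 partner genes were lower, against 2017 of 8060 symbols. CDK19 and MED30, lower at the minimum of 1 FPKM, were not scored. The medians were -0.35 for the members (-0.27 for all symbols) and -0.30 for the middle. A pseudocount of 1 left 1 member higher (MED12L), against 2.22% of all symbols, and the calls of MED18, MED26 and MED9 were lost. The same 10 members were lower, against 18.8% of all symbols. It gave a kinase median of -0.69 and differences of -0.40 between CDK19 and CDK8 and 1.70 between MED12L and MED12. The latter, 2.68 as reported, was 2.52 with a pseudocount of 0.1 and 0.83 with FPKM summed over rows. Centring on the median of all symbols left 5 members lower (CDK19, CCNC, MED13, MED14 and MED10), against 13.3% of all symbols. It gave medians of 0.017 for the members, 0.10 for the head, 0.14 for the middle, -0.11 for the tail and -0.55 for the kinase module. Placing MED27 to MED30 in the tail gave a tail median of -0.15. Rescaling to the same FPKM sum over symbols moved every log2 fold change by -0.30. It gave 15 members and 30 partner genes lower, against 44.1% of all symbols, and 1 member higher (MED12L), against 1.44%. The medians were -0.52 for the members, -0.43 for the head, -0.40 for the middle, -0.65 for the tail and -1.09 for the kinase module.

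Alternatives added after seeing the data were the following. Centring on the median of each GC bin left 3 members and 5 partner genes lower and 5 members and 2 partner genes higher, against 7.38% lower and 4.79% higher of all matched symbols, with medians of -0.021 for the members, 0.12 for the head, 0.51 for the middle and -0.45 for the kinase module, and differences of -0.18 between MED13 and MED13L and 2.96 between MED12L and MED12. The MED12L row on the gene's strand turned its log2 fold change to -0.097 and the difference from MED12 to 0.12. Without MED12L the kinase median was -0.92. Except where a value shows it, the cause was not tested. All 10 lower members, and MED1, MED11, MED16 and MED24, kept a log2 fold change below 0 under every setting that scored them, and MED18, MED9 and MED26 kept one above 0. The fold, the minimum FPKM, a pseudocount and the module assignment cannot turn a sign. The shifts by scaling and by GC bin were smaller than these differences, so the kept signs are no test of the calls. With a mean of at least 5 FPKM, CDK19, MED30, MED11, MED18, MED9 and MED26 were not scored.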
